A study of Mus musculus with 6 samples.

Results

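ATF4 and a set of genes that cells switch on under stress were followed in CAD cells, a neuron-like mouse cell line of catecholaminergic origin. There were 3 undifferentiated, proliferating libraries and 3 libraries of dexamethasone-differentiated cells. The 10 genes are Atf4, Atf5, Atf3, Ddit3, Trib3, Nupr1, Chac1, Asns, Fam129a and Ppp1r15a, out of 55536 genes in the count files. They were selected on their known place in the pathway together with their higher reads in these same differentiated libraries, so their values are given as a description and carry no test. Undifferentiated cells grew with 8% serum. For differentiation, serum was lowered to 1% and dexamethasone, a synthetic glucocorticoid, was added at 100 µM for 5 days, with fresh medium every 48 h. The steroid and the lower serum changed together and their parts cannot be told apart. All libraries come from 1 line, of a male C57BL/6 x DBA/2 cross. Its samples are described as independent, without saying whether they were separate cultures, so spreads and p-values refer to these samples and may be technical.

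The integrated stress response starts when kinases that sense amino acid lack, unfolded protein, viral RNA or haem lack phosphorylate the translation factor eIF2alpha. General translation then slows, while open reading frames upstream of the main one let ribosomes reach the coding regions of Atf4, Atf5 and Ddit3 mRNA. ATF4 protein pairs with C/EBP factors at C/EBP-ATF response elements and raises genes of amino acid supply, feedback and cell death. Because that control acts on translation, mRNA counts show the level of these transcripts and not the amount of protein made.

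The RefSeq promoter windows of the 10 genes (GRCm38.p6, 250 bases before to 50 after the start) are shown first where they hold a full element, since these letters are what the factors of this pathway are known to bind. All 10 genes had a window, and Atf5 had a second one. The C/EBP-ATF element, searched as TGATGNAA on both strands, was present in 5 of the 10 genes (Atf3, Trib3, Nupr1, Chac1 and Asns) and in 3.97% of the 32851 windows of the table. The cAMP response element TGACGTCA was present in Ppp1r15a alone among the 10 and in 1.79% of all windows. Its shorter core TGACG, which the full element contains on both strands, was present in 6 of the 10 genes and in 20.8% of windows. An endoplasmic reticulum stress element (CCAAT and CCACG, 9 bases apart) was in 0.119% of windows. A glucocorticoid response element (GNACA and TGTNC, 3 bases apart) was in 0.475%. Neither was in a window of the 10 genes, which at such small shares says little about either element. Bases outside the windows were not searched. The 10 genes are on the list as known stress targets, so the share with a C/EBP-ATF element is a description and not independent evidence.

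The bases before the start are printed 5′ to 3′ along the gene's strand, with the element in capitals. They lie at chr1:191183334-191183583 (minus strand) for Atf3, chr7:126625471-126625720 (minus) for Nupr1, chr2:119350992-119351241 (plus) for Chac1, chr6:7693210-7693459 (minus) for Asns and chr7:45526269-45526518 (minus) for Ppp1r15a. For Trib3 the match lies after the start, and only a short site at chr2:152344029-152344056 (minus) is given.
Atf3: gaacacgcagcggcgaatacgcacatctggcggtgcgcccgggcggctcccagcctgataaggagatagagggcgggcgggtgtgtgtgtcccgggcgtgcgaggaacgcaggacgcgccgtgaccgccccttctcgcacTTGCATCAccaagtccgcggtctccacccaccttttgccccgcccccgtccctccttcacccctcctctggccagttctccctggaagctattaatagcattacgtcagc
Nupr1: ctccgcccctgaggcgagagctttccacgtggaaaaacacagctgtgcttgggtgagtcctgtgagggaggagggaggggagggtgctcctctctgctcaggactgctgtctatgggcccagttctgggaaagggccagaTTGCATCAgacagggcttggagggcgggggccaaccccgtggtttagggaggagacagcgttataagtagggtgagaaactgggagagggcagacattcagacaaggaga
Chac1: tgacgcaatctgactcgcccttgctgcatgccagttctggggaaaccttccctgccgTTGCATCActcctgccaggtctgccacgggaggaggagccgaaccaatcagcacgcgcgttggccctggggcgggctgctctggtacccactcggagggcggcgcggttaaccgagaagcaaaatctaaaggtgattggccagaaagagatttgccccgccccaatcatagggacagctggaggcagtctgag
Asns: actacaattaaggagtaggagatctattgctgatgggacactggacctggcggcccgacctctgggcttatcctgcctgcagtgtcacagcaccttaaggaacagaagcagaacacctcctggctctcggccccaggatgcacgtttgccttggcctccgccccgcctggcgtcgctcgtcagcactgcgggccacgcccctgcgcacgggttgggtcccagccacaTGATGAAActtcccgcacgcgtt
Trib3: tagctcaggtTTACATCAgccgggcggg
Ppp1r15a: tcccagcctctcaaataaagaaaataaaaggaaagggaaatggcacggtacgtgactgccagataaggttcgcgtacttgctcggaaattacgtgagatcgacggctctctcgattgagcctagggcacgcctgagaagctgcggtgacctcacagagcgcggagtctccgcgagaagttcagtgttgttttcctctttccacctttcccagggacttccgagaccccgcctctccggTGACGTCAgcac
Atf3, Nupr1 and Chac1 carry the same 8 letters, TTGCATCA, the element read from the other strand. In Atf3 and in Nupr1 it begins at position -110 from the start, and in Chac1 at -193. Trib3 has TTACATCA at position 15 after the start, and Asns has TGATGAAA at -23. The windows of Atf4, Atf5, Ddit3 and Fam129a held neither the C/EBP-ATF nor the full cAMP element, which says only that these letters are not in these windows.

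All 10 genes were higher in differentiated cells, and for none of them did the libraries of the groups overlap. The sizes differed widely among them: Nupr1 was 56.5-fold higher, Fam129a 15.1-fold, Ddit3 13.7-fold and Atf5 10.4-fold, whereas Atf4 itself was 2.03-fold and Asns 1.30-fold higher. In the edgeR fit across 12664 genes 40.3% of genes were called higher and 38.6% lower, and 41.0% had every differentiated library above every undifferentiated one. The 10 genes, all of which passed the low-count filter, are all among the higher ones in both counts, which follows from the way they were chosen. Nupr1, with 7 reads in undifferentiated replicate 3, passed the filter only through its differentiated libraries. Levels are shares of the reads counted in a library, and fewer cells making a transcript cannot be told apart from less of it per cell.

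**Figure D1:**
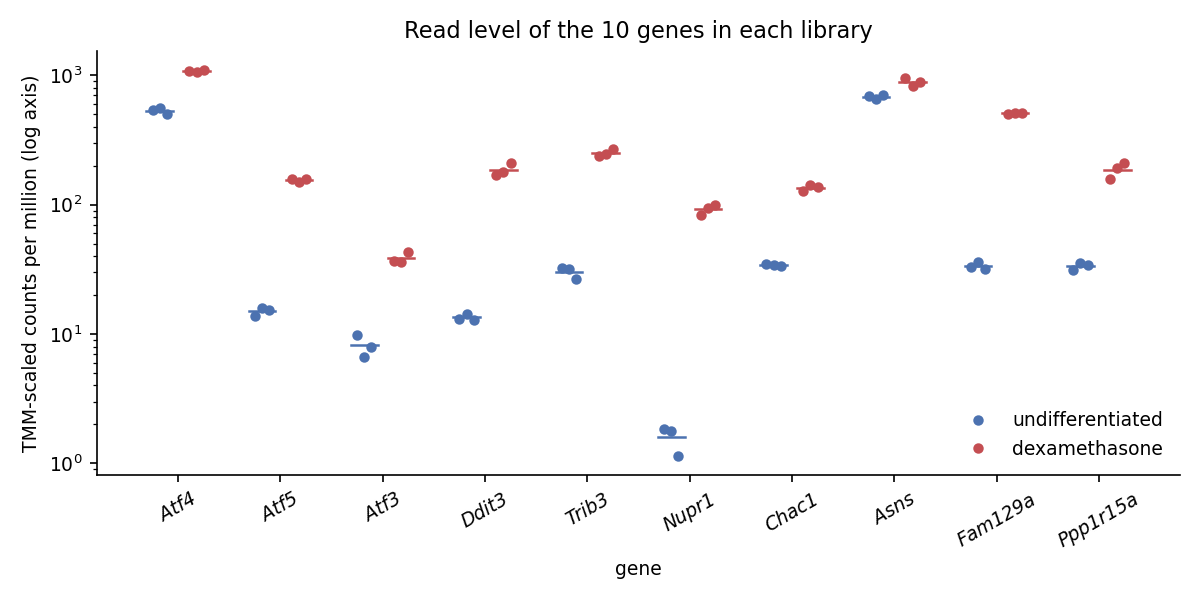
Read level of each gene (horizontal axis) in each library, as CPM (TMM-scaled counts-per-million) on a log axis; points are the 3 libraries of a group in order of replicate number and bars their mean. No gene has overlapping groups, and the gap is smallest for Asns (655 to 699.8 against 833 to 948 CPM) and largest for Nupr1.

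The counted reads of a library ranged from 6411105 to 8757992, at which 3 reads equal 0.327 to 0.487 on the TMM-scaled counts-per-million (CPM) scale. Mitochondrial transcripts took 2.93% to 3.32% of reads in undifferentiated and 2.96% to 3.44% in differentiated libraries, while mitochondrial ribosomal RNA took 0.0634% to 0.0883% and 0.195% to 0.243%. All 15 markers listed for catecholaminergic and neuroendocrine cells had enough reads to test. Of these 8 rose and 6 fell (edgeR), 53.3% and 40% against 40.3% and 38.6% over all genes. The 15 markers together went from 4145 to 4232 CPM in undifferentiated to 13680 to 15690 CPM in differentiated libraries, most of it from the granule gene Chgb. Among the enzymes that make catecholamines, Th was at 3.82 to 5.03 and 8.64 to 10.7 CPM and Ddc at 3.39 to 3.73 and 0.298 to 0.664 CPM. Dbh, which makes noradrenaline, fell 13.2-fold from 161 to 167 CPM to 12.2 to 12.9 CPM (edgeR adjusted p = 5.49e-25), and Gch1, which makes the cofactor of Th, rose from 99.3 to 108 CPM to 274 to 300.1 CPM (edgeR adjusted p = 4.53e-19). Of the markers of other cells, Mog, Sox10, Ptprc and Cx3cr1 had no read, and the 5 microglial and blood markers summed to at most 0.848 CPM in any library. The 6 fibroblast markers summed to 10.1 to 13.7 CPM in undifferentiated and 21.6 to 23.7 CPM in differentiated libraries. The 4 endothelial markers summed to 18.3 to 21.3 and 33.4 to 35.7 CPM, almost all of it Pecam1. The 5 oligodendrocyte and Schwann cell markers summed to 2.97 to 4.22 and 2.53 to 4.36 CPM. The 5 astrocyte markers summed to 8.06 to 10.6 and 60.3 to 65.0 CPM, nearly all of the latter from Aldoc, while Gfap, Aqp4 and Slc1a3 stayed below 1 CPM. The part of ribosomal RNA share or of other cells in the values below was not tested.

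Atf4 (ENSMUSG00000042406, chromosome 15, 80255184 to 80257541 in GRCm38) encodes the bZIP factor at the centre of the response. It was read at 538, 562 and 499 CPM in undifferentiated replicates 1, 2 and 3 and at 1084, 1068 and 1099 CPM in the differentiated ones. The 3 differentiated libraries were within 0.04 of each other on the log2 scale, a narrower range than that of 0.17 among the undifferentiated ones. The fitted log2 fold change was 1.02 ± 0.0496 (SE), from a mean of 533 ± 32.1 to 1084 ± 15.8 CPM (SD, n = 3).

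Atf5 (ENSMUSG00000038539, chromosome 7, 44812256 to 44816658) encodes a related factor that is translated in the same manner and is known from the mitochondrial stress response. Its reads were at 13.9, 15.8 and 15.3 CPM in undifferentiated and 158, 151 and 158 CPM in differentiated libraries, a log2 fold change of 3.37 ± 0.0760 (SE). On its opposite strand lies part of Nup62, which the strand-specific counting keeps apart. Per length of transcript, Atf5 stood at 0.0333 ± 0.00287 of the Atf4 level in undifferentiated and 0.170 ± 0.00268 in differentiated cells (SD, n = 3). No library of a group overlapped the other group in this ratio, which follows from the unlike folds of these chosen genes.

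Atf3 (ENSMUSG00000026628, chromosome 1, 191170296 to 191218039), a stress-induced factor that mostly represses, was at 9.89, 6.63 and 7.95 CPM in undifferentiated and at 36.8, 36.3 and 43.3 CPM in differentiated cells (log2 fold change 2.24 ± 0.125 SE). Differentiated replicate 3 was the highest of its group.

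Ddit3 (ENSMUSG00000025408, chromosome 10, 127290774 to 127296288) encodes CHOP, the factor that links a lasting stress response to cell death. Its level was 13.1, 14.4 and 12.8 CPM in undifferentiated and 171, 177 and 211 CPM in differentiated libraries (log2 fold change 3.78 ± 0.0920 SE), with the groups far apart and replicate 3 highest among the differentiated. Per length it stood at 0.0348 ± 0.000982 of Atf4 in undifferentiated and 0.236 ± 0.0246 in differentiated cells (SD, n = 3). A second gene model of the same symbol, with 105 exonic bases inside the locus on the same strand, had 0 reads in every library. As reads that overlap more than 1 gene were not counted, any reads over that stretch are missing from the Ddit3 value. Mars, the methionyl-tRNA synthetase gene that overlaps its end on the opposite strand, fell 1.37-fold (edgeR adjusted p = 1.03e-08).

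Trib3 (ENSMUSG00000032715, chromosome 2, 152337422 to 152344032), a pseudokinase that binds ATF4 and CHOP and restrains them, was at 32.4, 31.6 and 26.6 CPM in undifferentiated and 237, 248 and 268 CPM in differentiated cells. That is a log2 fold change of 3.05 ± 0.0717 (SE). Nupr1 (ENSMUSG00000030717, chromosome 7, 126623249 to 126630861), a small chromatin-associated stress protein, had 13, 14 and 7 reads in the undifferentiated libraries and 750, 861 and 672 in the differentiated ones. In CPM these are 1.84, 1.78 and 1.14 against 83.0, 93.9 and 100.1. The groups stood further apart than for any other of the 10 genes, with a log2 fold change of 5.82 ± 0.143 (SE) that rests on few reads in the undifferentiated cells.

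Chac1 (ENSMUSG00000027313, chromosome 2, 119351229 to 119354381), which degrades glutathione, was at 35.0, 33.9 and 33.6 CPM in undifferentiated and 127, 142 and 136 CPM in differentiated cells (log2 fold change 1.98 ± 0.0684 SE). Asns (ENSMUSG00000029752, chromosome 6, 7675169 to 7693254), asparagine synthetase, was already high before differentiation. Its level was 697, 655 and 699.8 CPM in undifferentiated and 948, 833 and 891 CPM in differentiated cells, with a log2 fold change of 0.38 ± 0.0511 (SE), the smallest among the 10. The means were 684 ± 25.3 and 891 ± 57.4 CPM (SD, n = 3), so the groups lay close together without overlapping.

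Fam129a (ENSMUSG00000026483, chromosome 1, 151571186 to 151721939), also named Niban, a stress-induced protein linked to the control of translation, was at 33.1, 35.9 and 31.7 CPM in undifferentiated and 505, 509 and 513 CPM in differentiated cells. Its differentiated libraries were the closest to each other of all 10 genes, within 0.02 on the log2 scale, and the log2 fold change was 3.92 ± 0.0619 (SE). Ppp1r15a (ENSMUSG00000040435, chromosome 7, 45522916 to 45526268) encodes GADD34, the inducible subunit that directs phosphatase 1 to eIF2alpha and ends the response. It was at 31.5, 35.6 and 34.3 CPM in undifferentiated and 158, 191 and 209.8 CPM in differentiated cells (log2 fold change 2.46 ± 0.0870 SE), and it had the widest range of the 10 among the differentiated libraries, 0.41 on the log2 scale.

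The differentiated libraries kept a loose order across the genes. Replicate 3 was the highest of its group for 7 of the 10 genes, replicate 1 for Atf5 and Asns, and replicate 2 for Chac1. The median deviation from the group mean over the 10 genes was 0.0592 on the log2 scale in differentiated replicate 3 and -0.0768 in replicate 1. The same order was not counted over all genes, so it is not shown to be particular to the 10. Across genes with enough reads, differentiated replicate 1 stood apart from replicates 2 and 3 (chi-square over its degrees of freedom 3.18 and 3.19). Between replicates 2 and 3 that value was 1.65. Among the undifferentiated libraries replicate 2 was the highest for 5 genes, replicate 1 for 4 and replicate 3 for 1.

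**Figure D2:**
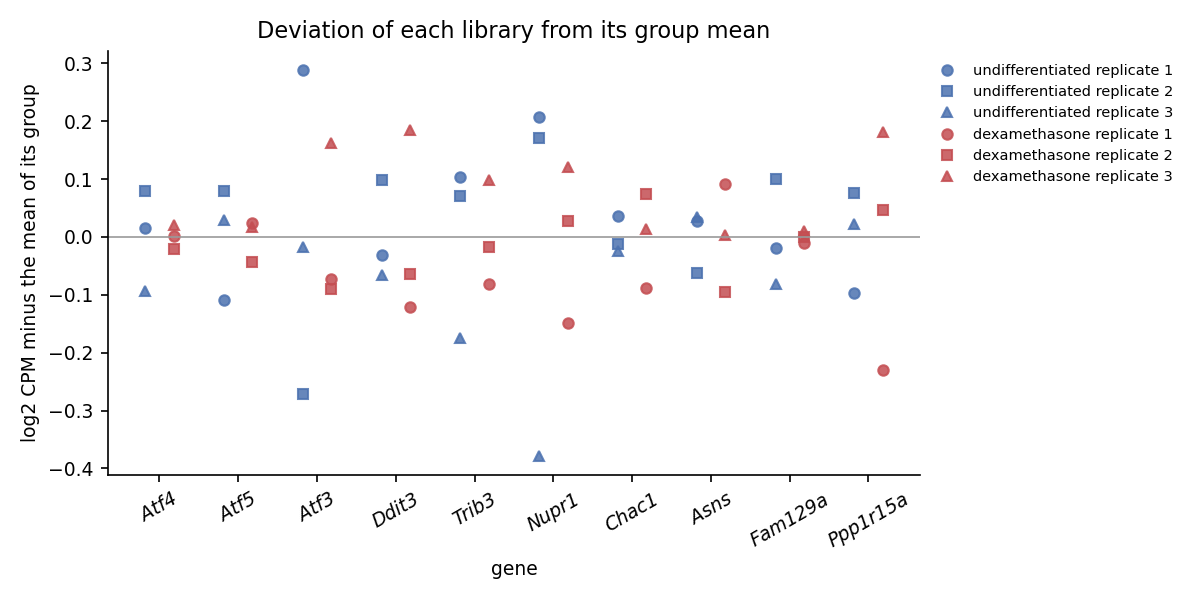
Deviation of each library's log2 CPM from the mean of its group (vertical axis) for the 10 genes (horizontal axis); colours mark the groups and symbols the replicate numbers. Fam129a and Atf4 are tight in the differentiated group, Ppp1r15a is wide, and Nupr1 and Atf3 are wide in the undifferentiated group, where their reads are few.

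Levels were compared between genes only as transcripts-per-million (TPM), computed from the counts and the exonic length of each gene. In undifferentiated cells Asns (758 ± 20.5 TPM) and Atf4 (685 ± 46.4) stood far above the other 8 genes (SD, n = 3). Chac1 followed at 63.3 ± 1.21, Trib3 at 43.1 ± 4.55 and Ppp1r15a at 34.9 ± 2.46 TPM (SD, n = 3). Ddit3 (23.8 ± 1.72) and Atf5 (22.8 ± 1.74) did not differ beyond their spread, nor did Fam129a (13.8 ± 1.03) and Atf3 (11.5 ± 2.2), and Nupr1 was lowest at 1.91 ± 0.475 TPM (SD, n = 3).

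In differentiated cells Atf4 was first at 1572 ± 29.1 TPM and Asns second at 1113 ± 60.4 TPM (SD, n = 3). The ratio of Asns to Atf4 went from 1.11 ± 0.103 to 0.708 ± 0.0413 (SD, n = 3). Its libraries did not overlap, which follows from the smaller fold of Asns. Trib3 (404 ± 29.4) and Ddit3 (372 ± 45.8 TPM) came next (SD, n = 3). Their spreads overlapped, but Trib3 was above Ddit3 in each differentiated library. Chac1 (281 ± 18.9) and Atf5 (267 ± 5.59) did not differ beyond their spread, nor did Fam129a (236 ± 4.35) and Ppp1r15a (217 ± 33.0). In both pairs the order changed between libraries. Nupr1 was at 126 ± 13.1 and Atf3 at 61.6 ± 6.62 TPM (SD, n = 3). Together the 10 genes took 1658 ± 36.5 TPM in undifferentiated and 4649 ± 160.3 TPM in differentiated cells (SD, n = 3).

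**Figure D3:**
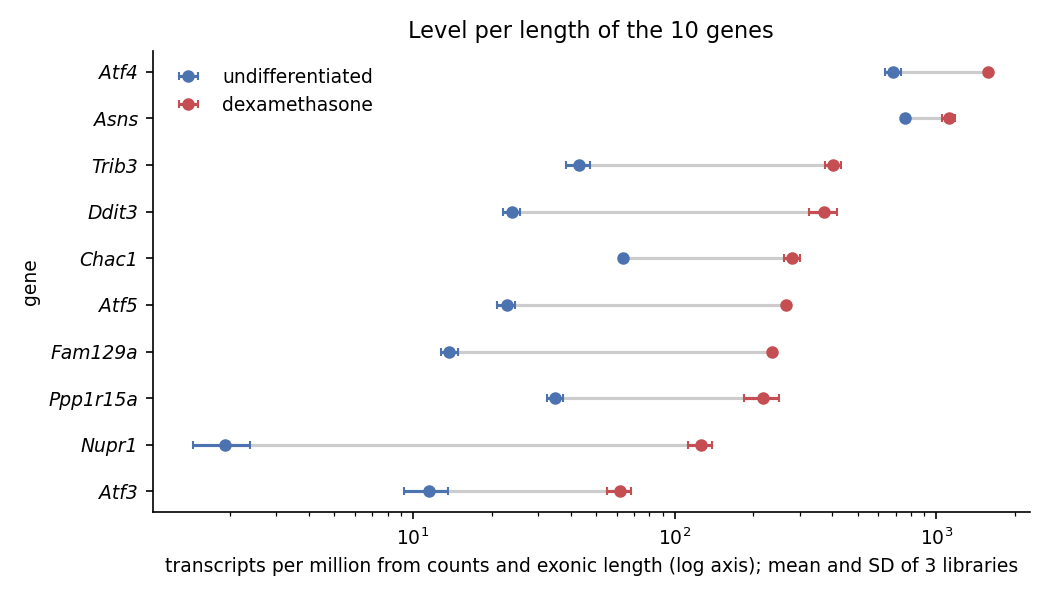
Level per length of the 10 genes (vertical axis) in undifferentiated and differentiated cells, as TPM on a log axis (horizontal); points are means of 3 libraries and bars the SD. Atf4 and Asns lead in both groups, and Nupr1 and Atf3 are the 2 lowest in both.

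The genes whose pattern over the 6 libraries lay nearest to that of Atf4, by the root mean square distance of centred log2 CPM among 10213 genes with a mean of at least 5 CPM over the 6 libraries, were Igf1r, Hdac8, Mxi1, Alg2 and Maml3. Their distances were 0.0296 to 0.0372 and their fitted folds 1.99 to 2.06. None of the other 9 stress genes was close to Atf4 by this measure: the nearest, Asns, was at 0.336 and Chac1 at 0.477. The genes nearest to Atf5 were Gsta3, Galnt3, Celsr1, Chgb and Itgb3, at distances of 0.0867 to 0.0987 and folds of 9.73 to 12.7. Trib3 and Ddit3 were nearer to Atf5 (0.203 and 0.227, ranks 29 and 37) than any of the 10 was to Atf4. The measure is a description over 6 libraries that share 2 groups, and it is set almost wholly by the size of the step between them. Gsta3 (2.80 CPM) and Itgb3 (0.994 CPM) were below 5 CPM in undifferentiated cells and passed that minimum through their differentiated libraries alone. Gsta3 belongs to a family of related genes, and any of its reads that map to several places were not counted.

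The list of genes upstream of ATF4 holds eIF2alpha kinases, eIF2, eIF2B and phosphatase subunits. It also holds regulators of the kinases, inhibitors among them, so a fall does not have the same meaning for each gene. Of its 22 tested genes 15 fell and 3 rose (edgeR, Benjamini-Hochberg adjusted p under 0.05), or 68.2% and 13.6%. Over all genes tested 38.6% fell and 40.3% rose. This list and those below were chosen with earlier results of these data known. Their shares are therefore a description and not independent evidence. The median log2 fold change of the list was -0.39 against 0.02 over all genes tested. Eif2s1, which encodes eIF2alpha itself, went from 375, 379 and 389 CPM to 186, 177 and 172 CPM, a 2.13-fold drop (edgeR adjusted p = 3.67e-17). Its groups lay far apart. Eif2b2, a subunit of the exchange factor that phosphorylated eIF2 blocks, fell 2.12-fold (edgeR adjusted p = 1.16e-15).

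The 4 kinases went separate ways. Eif2ak2, known as PKR and activated by double-stranded RNA, rose 1.66-fold (edgeR adjusted p = 2.54e-07) and Eif2ak1, the haem-regulated kinase, fell 1.22-fold (edgeR adjusted p = 0.000237). Eif2ak3, known as PERK and activated by unfolded protein in the endoplasmic reticulum, had 45.9 ± 3.13 and 51.4 ± 4.74 CPM (SD, n = 3; edgeR adjusted p = 0.0518). It was called under 6 alternatives, among them without undifferentiated replicate 2 (edgeR adjusted p = 0.0292) and without dexamethasone replicate 3 (edgeR adjusted p = 0.0101). Eif2ak4, known as GCN2 and activated by uncharged tRNA, had 35.9 ± 0.994 and 36.4 ± 2.87 CPM (SD, n = 3; edgeR adjusted p = 0.768). Impact, an inhibitor of GCN2, rose 1.42-fold (edgeR adjusted p = 4.21e-09), and the mitochondrial protease gene Oma1 rose 1.81-fold at a low level, from 3.19 to 5.72 CPM (edgeR adjusted p = 0.0012). Ppp1r15b, the constitutive counterpart of Ppp1r15a, fell 1.21-fold from 218 ± 10.9 to 181 ± 2.17 CPM (SD, n = 3; edgeR adjusted p = 3.72e-05). Ppp1ca, with 21 and 11 reads over the groups, was not tested. Reads that map to several places or overlap several genes were not counted. Few or no reads, here and in the lists below, therefore need not mean a low level.

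Among bZIP partners and regulators of ATF4, 14 of 21 tested genes rose and 6 fell (66.7% and 28.6%, over all genes 40.3% and 38.6%). The median log2 fold change was 0.82 (0.02 over all genes). Cebpb, a C/EBP partner of both ATF4 and CHOP, went from 37.2, 39.8 and 36.9 to 159, 215 and 234 CPM, a 5.30-fold rise (edgeR adjusted p = 4.71e-18). Differentiated replicate 1 was its lowest differentiated library. Nfe2l1, a factor of the proteasome and redox response, rose 2.82-fold (edgeR adjusted p = 2.96e-20), and Cebpg, an ATF4 partner, 2.24-fold. The growth-induced AP-1 genes Fos and Junb fell 5.07-fold and 2.13-fold (edgeR adjusted p = 3.12e-15 and 7.69e-15), while Jun rose 1.85-fold. Cebpa, Cebpe and Fosl1 had no read, and Jund (5 and 9 reads) and Batf3 (22 and 22) were too low to test, with the same limit on counting.

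On the list of amino acid transporters known as ATF4 targets 11 of 12 tested genes rose and 1 fell. These are 91.7% and 8.33%, over all genes 40.3% and 38.6%. As the list was chosen with earlier results of these data known, these shares are a description. The median log2 fold change was 0.94 (0.02 over all genes). Slc7a11, the cystine and glutamate exchanger, went from 25.7, 24.1 and 25.8 to 147, 162 and 141 CPM, a 5.97-fold rise (edgeR adjusted p = 8.63e-22). Slc38a7, a lysosomal glutamine transporter, rose 4.22-fold (edgeR adjusted p = 2.58e-20) and Slc3a2, the heavy chain shared by several exchangers, 2.05-fold. Slc43a1, a carrier of large neutral amino acids, fell 2.66-fold at 3.98 and 1.51 CPM (edgeR adjusted p = 9.15e-05).

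Enzymes of amino acid and one-carbon synthesis moved both ways: 8 of 15 rose and 6 fell. These shares, 53.3% and 40%, compare with 40.3% and 38.6% over all genes. The median was 0.19 on the log2 scale (0.02 over all genes). Aldh1l2, the mitochondrial formyltetrahydrofolate dehydrogenase, went from 49.2, 49.6 and 47.4 to 347, 335 and 350.1 CPM, a 7.05-fold rise (edgeR adjusted p = 8.41e-25). Cth, which makes cysteine, rose 5.14-fold (edgeR adjusted p = 4.46e-19). The serine synthesis enzyme Psat1 fell 1.76-fold (edgeR adjusted p = 1.93e-14), and Gls2, a mitochondrial glutaminase, 2.30-fold (edgeR adjusted p = 6.81e-11). Phgdh, the enzyme before Psat1, rose 1.14-fold (edgeR adjusted p = 0.00393). The mitochondrial folate enzymes Shmt2 and Mthfd2 fell 1.45-fold and 1.17-fold, the latter no longer called with library totals as scale (edgeR adjusted p = 0.0571).

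Of the 20 cytosolic aminoacyl-tRNA synthetases 8 rose and 11 fell, with a median log2 fold change of -0.14 (0.02 over all genes). The share that rose, 40%, is near the 40.3% over all genes, and 55% fell against 38.6%. With library totals as scale 8 rose and 7 fell. Wars and Sars, for tryptophan and serine, rose 2.34-fold and 1.86-fold (edgeR adjusted p = 1.04e-16 and 1.34e-15). Vars and Kars, for valine and lysine, fell 2.28-fold and 1.99-fold (edgeR adjusted p = 1.05e-16 and 1.31e-16).

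The list of other effectors downstream of ATF4 or CHOP had 17 of 20 tested genes higher and 1 lower. That is 85% and 5%, over all genes 40.3% and 38.6%. As this list too was chosen with earlier results of these data known, these shares are a description. The median log2 fold change was 1.54 (0.02 over all genes). Ddit4, an inhibitor of mTORC1 that glucocorticoids are also known to induce, went from 141, 144 and 128 to 627, 622 and 625 CPM (4.53-fold, edgeR adjusted p = 2.27e-23). Pck2, the mitochondrial phosphoenolpyruvate carboxykinase, rose 4.02-fold (edgeR adjusted p = 1.09e-20). Sesn2, an inhibitor of mTORC1 that senses leucine, rose 3.91-fold, the secreted glycoprotein gene Stc2 7.82-fold and the secreted stress signal Gdf15 3.99-fold. The growth arrest gene Gadd45a rose 11.6-fold while its relative Gadd45b fell 8.64-fold, from 21.1 ± 3.69 to 2.39 ± 0.635 CPM (SD, n = 3; edgeR adjusted p = 2.21e-14). Hmox1, haem oxygenase, was at 111 ± 4.95 and 102 ± 12.1 CPM (SD, n = 3; edgeR adjusted p = 0.0715) and was called lower without undifferentiated replicate 3 (edgeR adjusted p = 0.0486) or without dexamethasone replicate 3 (edgeR adjusted p = 0.00558). Vldlr and Pmaip1 had no read, and Fgf21 (0 and 17 reads) and Tnfrsf10b (0 and 1) were too low to test.

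**Figure D4:**
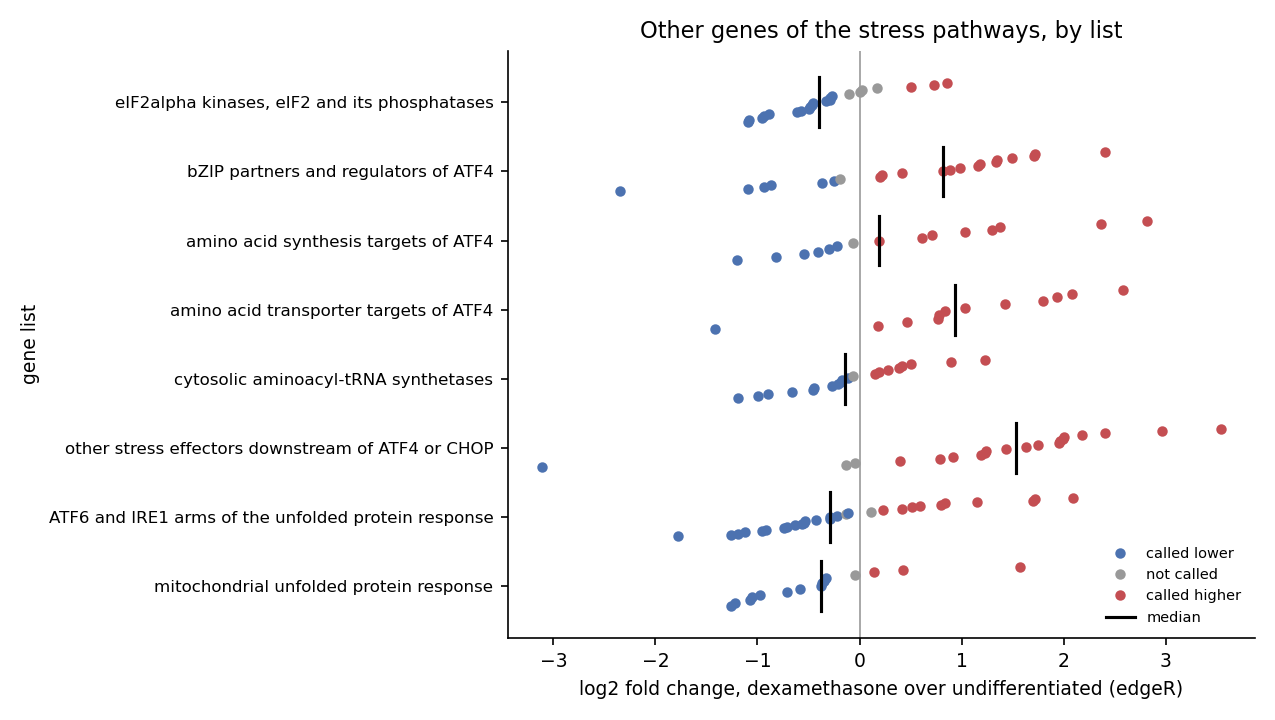
Log2 fold change of each tested gene (horizontal axis, edgeR, differentiated over undifferentiated) in 8 lists of the stress pathways, coloured by call at an adjusted p under 0.05; black bars are list medians. The medians of transporters (0.94) and other effectors (1.54) lie on the higher side, those of the eIF2 list (-0.39) and of both unfolded protein response lists (-0.28 and -0.37) on the lower side. The lists were chosen with earlier results of these data known.

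On the list for the other arms of the endoplasmic reticulum stress response, run by ATF6 and IRE1, more genes fell than rose. Among 29 tested genes 17 fell and 10 rose (58.6% and 34.5%, over all genes 38.6% and 40.3%). The median log2 fold change was -0.28 (0.02 over all genes). The sensor genes Ern1, which encodes IRE1, and Atf6 rose 3.29-fold and 3.26-fold (edgeR adjusted p = 1.73e-17 and 3.31e-19). Atf6 went from 63.2, 70.1 and 78.6 to 234, 223 and 231 CPM, with the groups far apart. Some chaperone genes that these sensors are known to raise fell, among them Hsp90b1, which encodes GRP94, from 1131, 1185 and 1248 to 562, 495 and 499 CPM (2.29-fold, edgeR adjusted p = 2.18e-17), and Creld2 by 3.44-fold (edgeR adjusted p = 1.28e-18). Hspa5, which encodes the chaperone BiP, was at 1094, 1093 and 1132 CPM in undifferentiated and 977, 909 and 969 CPM in differentiated libraries, a 1.16-fold drop (edgeR adjusted p = 0.000140) that was not called with library totals as scale (edgeR adjusted p = 0.0611). Xbp1, whose mRNA IRE1 splices, rose 1.34-fold (edgeR adjusted p = 1.92e-08), and these counts do not separate its spliced form. Among the 10 genes that rose were also Dnajb9 (2.23-fold), Wfs1 (4.25-fold), Edem2 (1.79-fold), Sel1l (1.74-fold), Derl1 (1.51-fold) and Syvn1 (1.43-fold). Edem1 and Derl2 were not called. The list thus moved both ways, and its median does not describe each arm. Derl3 had no read.

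On the list of mitochondrial chaperones, proteases and some other genes linked to ATF5, 11 of 15 tested genes fell and 3 rose. These are 73.3% and 20%, over all genes 38.6% and 40.3%. The median log2 fold change was -0.37 (0.02 over all genes). The chaperonin genes Hspd1 and Hspe1 fell 2.40-fold and 2.33-fold (edgeR adjusted p = 2.01e-18 and 9.97e-17), Hspd1 from 1055, 1095 and 1123 to 484, 429 and 453 CPM. The protease gene Lonp1 went the other way, from 135, 117 and 114 to 347, 369 and 373 CPM (2.97-fold, edgeR adjusted p = 3.92e-19). Dnaja3 and Hspa9, a cochaperone and chaperone of the matrix, rose 1.34-fold and 1.11-fold.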

How the data were processed

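The deposited values are raw counts of reads per gene, 1 file per library, with no normalization by the authors. Per the file headers, they were made with featureCounts 1.6.4 over exons of Ensembl release 96 (GRCm38), strand setting 1, without options to count reads that map to several places or overlap several genes. Trim Galore 0.6.4 and HISAT2 2.2.0 are among the tools listed, per the submitters' processing notes. Per the labels' protocols libraries were made from 500 ng of RNA with 12 cycles of amplification and read at 75 bases. Symbols came from GENCODE M21, which matched all 55536 identifiers.

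Groups were read from the sample titles. Genes were filtered with filterByExpr (minimum count 10, total 15), scaled with TMM and tested with edgeR 4.0.16 (quasi-likelihood test, R 4.3.3, group as the only term, Benjamini-Hochberg adjustment over 12664 genes). The method was checked on simulated counts. TPM were computed here from the deposited counts and exonic lengths. Counts of replicates differed by more than counting error (chi-square over its degrees of freedom was 1.65 to 3.19), so each library counts once. The SE of a log2 fold change is its size over the square root of the F statistic. Promoter windows are from RefSeq (GRCm38.p6). Fam129a was matched through its newer symbol.

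Members and lists were chosen with earlier results of these data known. Of each list, up to 2 called genes per direction with the smallest adjusted p and at least 1 CPM were named (30 genes). Named after their values were seen were 21 more, Mars, the cell markers and further genes of the ATF6 and IRE1 list. Alternatives were other scalings and filters, DESeq2 1.42.0, limma voom (limma 3.58.1), a replicate block, an adjusted p under 0.01 and each library left out. Protein sequences were not used here.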

Additional observations from a re-analysis of the deposited data

How the results depend on the processing

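All 10 stress genes stayed higher under every scaling, filter, tool and left-out library. They were chosen for higher reads in these same libraries, so this is no independent support for the direction. Their log2 fold changes ranged from 0.98 to 1.15 for Atf4, from 0.34 to 0.51 for Asns and from 5.65 to 5.95 for Nupr1. Upper quartile factors and library totals moved the median of all genes by 0.10 and 0.13 on the log2 scale, and library totals moved the log2 fold changes of Atf4 and Asns by about as much, to the upper ends given. With library totals as scale 7 tRNA synthetases fell. Over the left-out libraries the other effectors had 1 to 2 genes called lower, the second being Hmox1. No other list count moved by over 1.5 times, and the counts over all genes stayed within that range.

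The log2 change of Eif2ak4, 0.0278 in the main analysis, ranged from -0.0339 (without dexamethasone replicate 2) to 0.0733 over the left-out libraries. Aars, the alanyl-tRNA synthetase gene, was not called and had 0.0336 with upper quartile factors and 0.0584 with library totals in place of -0.0680. The cause was not tested. Eif2ak3 had an adjusted p of 0.00161 with library totals in place of 0.0518. With the replicate number as a block, 5017 genes were called higher and 4803 lower. Same-numbered libraries had correlations of -0.0947, 0.0357 and -0.0710 in their deviations from the group means, so the numbers were not taken to pair the samples. Nupr1 and Atf3, with the fewest undifferentiated reads, are the least precise of the 10.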
